A study of Mus musculus with 6 samples.

Results

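The 7 genes Mbd1, Mbd2, Mbd3, Mbd4, Zbtb33, Tdg and Smug1 encode proteins that read methylated CpG dinucleotides or remove damaged or modified bases from DNA. On the array they carry the names MBD1, MBD2, MBD3, MBD4, ZBTB33, TDG and SMUG1, and all probes with these target names were taken, which gave 17 of 45281 probes and 7 of 30854 target names. Expression was measured with Illumina bead arrays in malignant epithelial cells grown for a short term as an explant of the pancreatic carcinoma of a KPC-Brca1 mouse. The treated group held 3 plates given 0.5 µM decitabine (DAC) over 48 h, and the untreated group 3 plates of the same culture. Both groups share the KPC-Brca1 genotype, whose alleles are not given in the sources used here, and the plates derive from 1 carcinoma. All p-values thus rest on plate-to-plate spread, part of which may be technical, and say nothing of other animals. The series addresses, by its title, gene activation by DAC in such carcinoma cells.

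DNA methylation at CpG is written by DNA methyltransferases and read by a small set of proteins that bring repressors to methylated DNA. Mbd1 and Mbd2 bind methylated CpG through the methyl-CpG binding domain, and Mbd2 and its relative Mbd3 are alternative subunits of the NuRD complex, which deacetylates histones and remodels nucleosomes. Mbd3 is known in mammals to have little preference for methylated DNA. Kaiso, the product of Zbtb33, is a zinc finger protein that binds pairs of methylated CpGs as well as an unmethylated motif. Mbd4 joins a methyl-CpG binding domain to a glycosylase that removes thymine or uracil opposite guanine, the products of cytosine deamination at CpG. Tdg removes thymine from such mismatches and also the oxidised cytosines that Tet enzymes make, and Smug1 removes uracil and hydroxymethyluracil. Decitabine, a nucleoside that is incorporated into replicating DNA, binds DNA methyltransferases covalently there, and methylation is then lost over cell divisions. Methylation itself was not measured in these samples.

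The promoters are shown because the drug acts on CpG methylation. RefSeq promoter windows of GRCm38.p6, each 300 bases around an annotated start, matched 5 members, and Mbd1 and Mbd2 are named only. The windows of Zbtb33 (chrX:38189543-38189842, plus strand), Mbd4 (chr6:115853292-115853591, minus strand) and Smug1 (chr15:103163235-103163534, minus strand) are printed 5′ to 3′ on the strand of the gene with each CpG in capitals. They were picked as the member with the most CpGs, the glycosylase with a methyl-CpG binding domain, and the member with the fewest. The Smug1 window lies at a start inside the gene, whose annotated 5′ end is at chr15:103168939. The windows of the other members hold the annotated 5′ end of their gene.
Zbtb33: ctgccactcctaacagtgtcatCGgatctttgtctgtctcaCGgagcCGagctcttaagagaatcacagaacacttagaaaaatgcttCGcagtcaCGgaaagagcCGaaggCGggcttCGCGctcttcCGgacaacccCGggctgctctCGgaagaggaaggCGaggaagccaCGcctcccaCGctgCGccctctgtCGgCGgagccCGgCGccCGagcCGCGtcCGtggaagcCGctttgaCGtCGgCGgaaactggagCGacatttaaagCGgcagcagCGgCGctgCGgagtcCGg
Mbd4: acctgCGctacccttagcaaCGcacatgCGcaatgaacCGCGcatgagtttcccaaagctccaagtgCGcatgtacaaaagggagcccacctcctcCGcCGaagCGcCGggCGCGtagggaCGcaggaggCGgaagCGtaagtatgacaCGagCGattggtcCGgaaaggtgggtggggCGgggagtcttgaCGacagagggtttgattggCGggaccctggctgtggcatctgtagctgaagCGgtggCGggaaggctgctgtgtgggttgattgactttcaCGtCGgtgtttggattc
Smug1: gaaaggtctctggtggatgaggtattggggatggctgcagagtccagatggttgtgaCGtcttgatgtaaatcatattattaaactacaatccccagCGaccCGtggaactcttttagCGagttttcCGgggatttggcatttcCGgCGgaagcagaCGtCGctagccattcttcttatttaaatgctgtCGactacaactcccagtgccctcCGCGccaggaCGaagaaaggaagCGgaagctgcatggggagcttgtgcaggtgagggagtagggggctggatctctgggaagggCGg

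The Zbtb33 window held 34 CpGs, and 7.73% of all 32851 windows held as many or more. The Tdg window held 26 (16.9% of windows), the Mbd4 window 25 (18.4%), the Mbd3 window 22 (23.1%) and the Smug1 window 15 (34.6%). The median over all windows was 7, so each of these 5 windows was richer in CpG than most. The 4 letters CGCG, a pair of adjacent CpGs of the kind that Kaiso binds when methylated, read the same on both strands and overlap the CpGs counted above. They occurred 2 times each in the Zbtb33, Mbd4 and Mbd3 windows and 1 time each in those of Tdg and Smug1, and 38.0% of all windows held at least 1. The unmethylated Kaiso motif was searched on both strands as TCCTGCNA, where N is any base, and was found 1 time in the Mbd3 window and in 4.96% of all windows. Its core CTGCNA, which that site contains, occurred 2 times in the Zbtb33 window and 1 time each in the Mbd3 and Tdg windows, against 48.4% of all windows. These letter matches describe the windows and say nothing of binding.

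**Figure D1:**
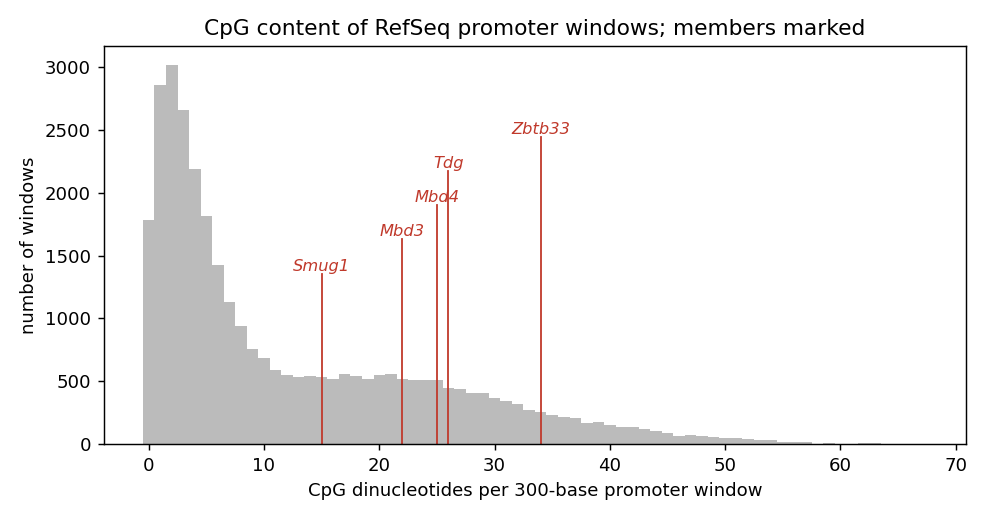
Number of RefSeq promoter windows (y axis) by their count of CpG dinucleotides (x axis), for 32851 mouse windows, with the 5 members that had a window marked by red lines. The members lie between 15 (Smug1) and 34 (Zbtb33) CpGs, to the right of the median of 7.

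The share of probes with a detection p under 0.05 was 43.9% to 47.4% per array, and the number of arrays limits the precision. Untreated replicate 1 had the highest mean intensity, 460 against 313.2 to 360.7 on the other 5 arrays, and its normalised log2 values correlated with those of untreated replicates 2 and 3 at r = 0.977 and 0.976, while replicates 2 and 3 correlated with each other at 0.997. The labelled cell type had its keratins: Krt8, Krt18, Krt19 and Krt7 were detected on all 6 arrays, as was Cdh1, and the probe of Epcam was detected on none. The summed normalised intensity of the 5 epithelial markers tested was 29690 to 33580 on DAC arrays and 25630 to 31100 on untreated arrays, and 1 of them, Krt7, fell by 0.47 on the log2 scale (adjusted p = 0.0451, limma). No probe of 4 endothelial markers, of the leukocyte marker Ptprc or of the fibroblast markers Col1a2, Col3a1, Dcn, Pdgfrb and Thy1 was detected on any array. The remaining 2 of 7 fibroblast markers (Col1a1 and Pdgfra) summed to 863.5 to 1359 on DAC arrays and 215.2 to 305.2 on untreated arrays. The 2 of 7 leukocyte markers tested (Cd68 and Laptm5) summed to 300.4 to 397.4 with DAC and 221.9 to 256.5 without. Within these sums Col1a1 rose by 2.22 ± 0.24 on the log2 scale (adjusted p = 0.00068, limma), while Pdgfra differed by 0.27. Laptm5, detected on 3 of 3 DAC arrays and 0 of 3 untreated arrays, was at least 3.91-fold higher with DAC, set against the dimmest detected probe of each untreated array. Its adjusted p of 3.14e-05 (limma) belongs to the fit of the measured values, and the bound itself was not tested. Cd68 differed by 0.09. Of 5 acinar and endocrine markers 3 were detected on no array, and the other two summed to 558.3 to 632.1 with DAC and 470.6 to 561.1 without. Their part in the results below was not tested.

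None of the 7 genes passed the test for a change with DAC. On the normalised scale the probes that represent Mbd1 and Mbd4 were higher on every DAC array than on every untreated array, by 1.30-fold and 1.21-fold, while their raw intensities overlapped. Mbd1 had an unadjusted p of 0.0379 and Mbd4 of 0.114 (limma), and neither passed after adjustment over all genes. Mbd3, Zbtb33, Tdg and Smug1 had overlapping groups and log2 differences between -0.15 and 0.02, and the only probe of Mbd2 was detected on no array. Of the 7 members, 6 had a probe detected (detection p under 0.05) on at least 3 arrays and were tested, and 0 of these 6 had an adjusted p under 0.05 (limma over 14154 genes, Benjamini-Hochberg). Among all genes tested, 17.3% did, 10.1% upward and 7.21% downward. At an unadjusted p under 0.05 the count was 1 of 6 members, Mbd1, against 32% of all genes. The groups did not overlap in 2 of 6 members, against 36.2% of all genes. The median log2 difference, DAC minus untreated, was -0.01 over the 6 members and -0.02 over all genes. Since fewer cells of a type and less RNA per cell give the same reading in a bulk sample, the levels below are per sample of total RNA.

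**Figure D2:**
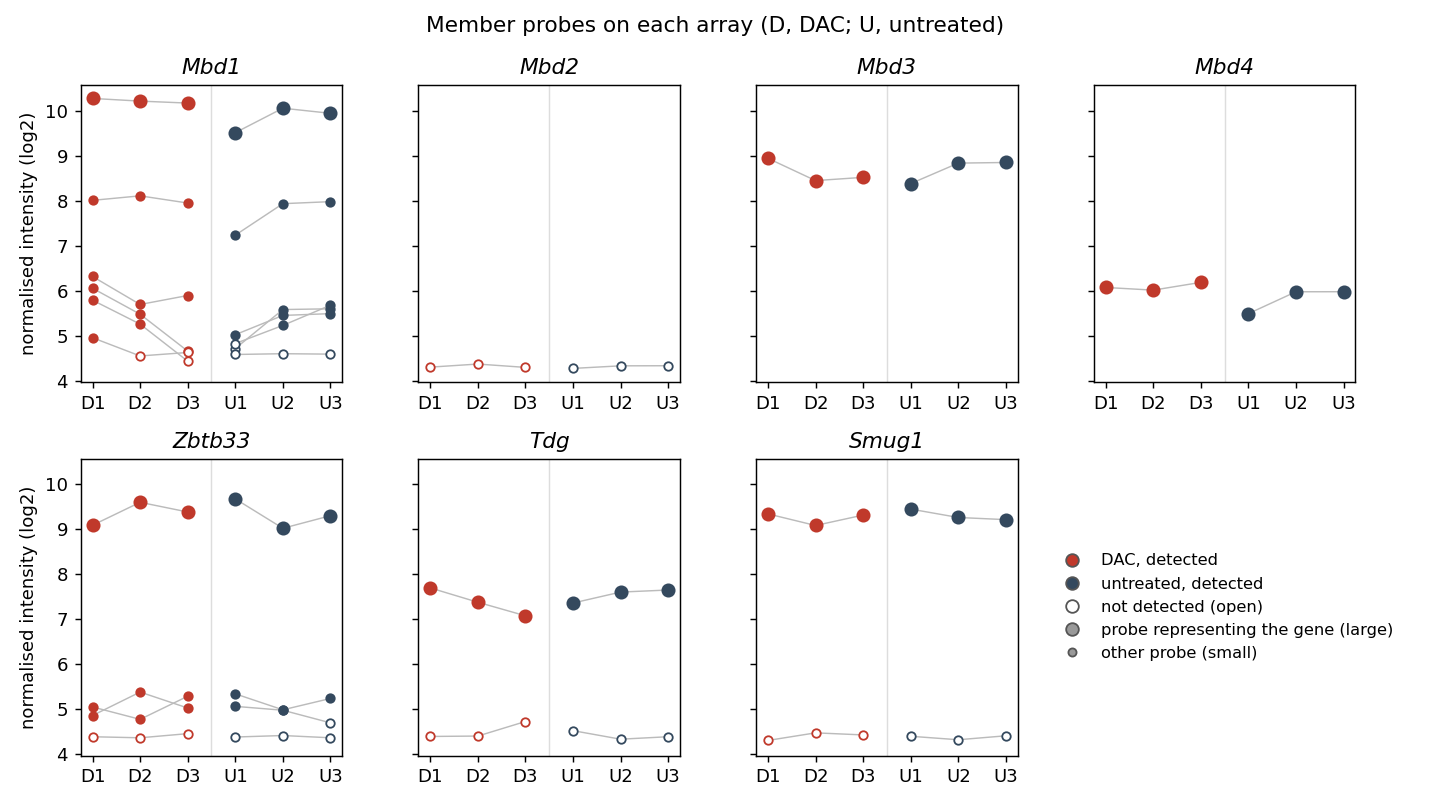
Normalised intensity (log2, y axis) of all 17 probes of the 7 genes on each array (x axis), with the 3 DAC arrays in red left of the 3 untreated arrays in dark blue. Large points are the probe that represents the gene, small points other probes, open points a detection p of 0.05 or more, and thin lines join the values of 1 probe. The DAC points of Mbd1 and Mbd4 sit above all untreated points of the same large probe, and Mbd2 is open throughout.

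Mbd1, the methyl-CpG reader that recruits a histone H3 lysine methyltransferase complex, had 6 probes, of which 5 were tested. The brightest, probe 1110338, read 1288.6, 1227.6 and 996.1 units of raw intensity with DAC and 1015, 1000.9 and 960.3 units without. After background correction and quantile normalisation its log2 values were 10.27, 10.21 and 10.17 on DAC arrays and 9.51, 10.05 and 9.94 on untreated arrays. The groups did not overlap on the normalised scale, and untreated replicate 1 was the lowest of the 6. The means were 10.22 ± 0.05 with DAC and 9.83 ± 0.29 without (log2, SD, n = 3 each). The log2 difference was 0.38 ± 0.15 (SE; adjusted p = 0.131, limma), or 1.30-fold with a 95% confidence interval from 1.02 to 1.67. Of all genes tested, 14.4% had a difference at least as high. Without untreated replicate 1 the difference was 0.22 ± 0.11, with an adjusted p of 0.152 (limma).

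The other Mbd1 probes did not all run the same way. Probe 2970445 had log2 values of 6.31, 5.69 and 5.89 with DAC and 5.02, 5.45 and 5.49 without, again with no overlap. Its difference of 0.65 ± 0.20 was the largest of any member probe tested and had an adjusted p of 0.0641 in the limma fit over all 21415 probes, of which 14.9% were called, 8.33% upward and 6.61% downward. Probe 5720474 differed by 0.31 ± 0.20, with DAC values from 7.95 to 8.11 and untreated values from 7.23 to 7.98. The 2 dimmer probes 5810474 and 5860528 differed by 0.10 ± 0.37 and -0.08 ± 0.35, and each was detected on 2 of 3 arrays of both groups. On both, DAC replicate 1 was high, at 6.05 and 5.79, and DAC replicate 3 was low, at 4.66 and 4.43. Probe 4670008 was detected on DAC replicate 1 alone and was not tested. The sequences of the probes were not used here, so which transcripts of Mbd1 each one reads is not stated.

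Mbd2, the methyl-CpG subunit of NuRD, had a single probe with raw intensities of 43.9, 47.5 and 43 units with DAC and 44.2, 44.2 and 45.1 without. Its detection p lay between 0.511 and 0.917, so no level and no fold is given. Mbd3, the NuRD subunit that can take its place, also had a single probe. Its log2 values were 8.94, 8.45 and 8.52 with DAC and 8.38, 8.83 and 8.85 without. DAC replicate 1 was the highest and untreated replicate 1 the lowest, and the groups overlapped almost fully. The means were 8.63 ± 0.27 with DAC and 8.69 ± 0.27 without (log2, SD, n = 3 each), and the difference was -0.05 ± 0.18 (adjusted p = 0.879, limma), or 0.964-fold with an interval from 0.721 to 1.29. Its value was -0.20 ± 0.15 without untreated replicate 1, with an adjusted p of 0.336 (limma).

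Zbtb33, the gene of Kaiso, had 4 probes, of which 3 were tested. Probe 2360291, which represents the gene, read 602.2, 814.3 and 580.7 raw units with DAC and 1142.4, 513.5 and 639.6 without. Its normalised log2 values were 9.09, 9.60 and 9.39 with DAC and 9.68, 9.02 and 9.30 without. The untreated arrays held both the highest and the lowest value of the 6. The difference was 0.02 ± 0.20 (adjusted p = 0.951, limma), or 1.02-fold with an interval from 0.746 to 1.39. It was 0.19 ± 0.16 without untreated replicate 1, the highest array, with an adjusted p of 0.382 (limma). The dimmer probes 1580010 and 6760327 differed by -0.10 ± 0.17 and 0.125 ± 0.17.

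Mbd4, the glycosylase that carries its own methyl-CpG binding domain, had 1 probe of low intensity, from 90 to 107.8 raw units with DAC and from 84.6 to 97.4 without. Its log2 values were 6.07, 6.01 and 6.18 on DAC arrays and 5.49, 5.98 and 5.98 on untreated arrays. The lowest DAC value lay just above the highest untreated value, and untreated replicate 1 stood below the rest. The means were 6.09 ± 0.09 with DAC and 5.81 ± 0.28 without (log2, SD, n = 3 each). The difference was 0.28 ± 0.16 (adjusted p = 0.265, limma), or 1.21-fold with an interval from 0.945 to 1.55, and 20.2% of genes had a difference at least as high. Without untreated replicate 1 it was 0.11 ± 0.11, with an adjusted p of 0.462 (limma).

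Tdg, the thymine DNA glycosylase, was represented by probe 4780671, with log2 values of 7.70, 7.38 and 7.08 with DAC and 7.36, 7.61 and 7.65 without. The DAC arrays held both the highest and the lowest value. Its means were 7.39 ± 0.31 with DAC and 7.54 ± 0.16 without (log2, SD, n = 3 each), and the difference was -0.15 ± 0.17 (adjusted p = 0.584, limma), or 0.899-fold with an interval from 0.684 to 1.18. Without DAC replicate 3, the lowest array, the difference was below 0.01 in size, and without DAC replicate 1 it was -0.31. Its second probe was detected on no array.

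Smug1, the uracil glycosylase, was represented by probe 770646, with log2 values of 9.34, 9.09 and 9.32 with DAC and 9.45, 9.26 and 9.22 without. All 6 arrays lay within a narrow range and the groups overlapped. The means were 9.25 ± 0.14 with DAC and 9.31 ± 0.12 without (log2, SD, n = 3 each), and the difference was -0.06 ± 0.13 (adjusted p = 0.783, limma), or 0.958-fold with an interval from 0.784 to 1.17. Its second probe was detected on no array.

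For none of the 6 genes did the 95% interval of the representing probe reach a 2-fold rise or fall. Among the dimmer probes, the interval of Mbd1 probe 2970445 ran from 0.19 to 1.10 on the log2 scale and thus past 2-fold. The standard error of the beads was at most 4.98% of the intensity for the representing probes of Mbd1, Mbd3, Zbtb33, Tdg and Smug1 and at most 5.70% for that of Mbd4. An interval that spans 0 does not show that a gene was unaffected.

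**Figure D3:**
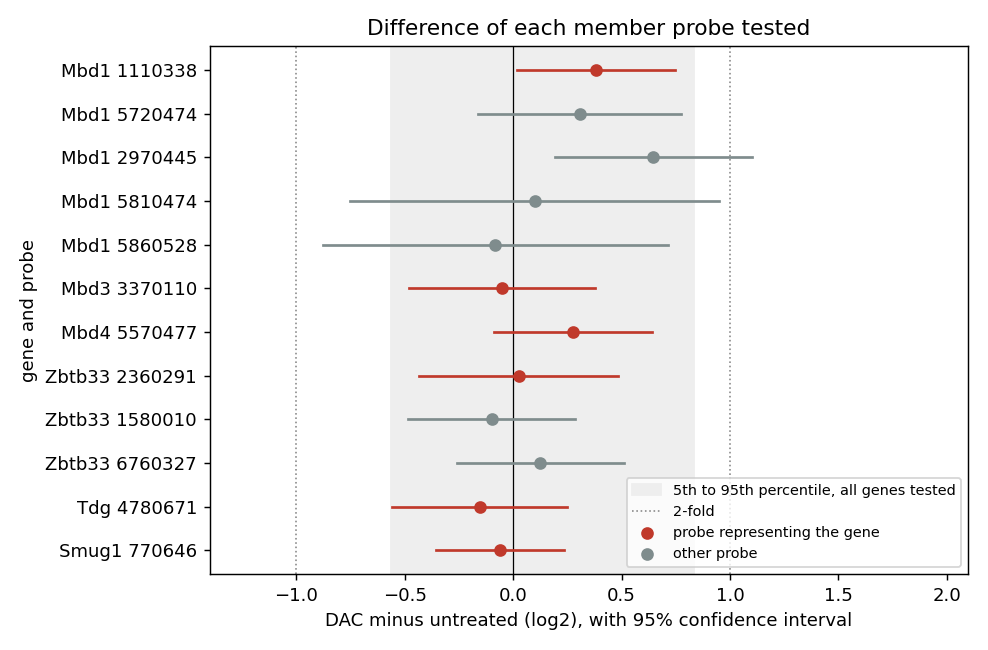
Log2 difference, DAC minus untreated (x axis), with its 95% confidence interval for the 12 member probes tested (y axis, gene and probe number), from the fit over all probes. Red marks the probe that represents each gene, grey other probes, the shaded band the 5th to 95th percentile of all genes (-0.57 to 0.83) and the dotted lines 2-fold. All 12 points lie inside the band, between -0.15 (Tdg) and 0.65 (Mbd1 probe 2970445).

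Mbd1 had the largest absolute difference among members detected on all 6 arrays. Among 10088 other genes that carry a current symbol and passed detection on every array, those whose centred log2 values lay nearest to those of Mbd1 were Nop2, a nucleolar RNA methyltransferase gene, with a root mean square difference of 0.04, the keratin gene Krt8 with 0.05, and Rnaseh2b, a subunit gene of ribonuclease H2, with 0.07. They differed between the groups by 0.41 ± 0.14, 0.42 ± 0.14 and 0.42 ± 0.14, and none had an adjusted p under 0.05 (0.0696 to 0.0796, limma). Untreated replicate 1 was the lowest array for all 3, as it was for Mbd1. Both the size of these differences and the low untreated replicate 1 follow from choosing the genes on these same 6 arrays. They are no separate result.

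Other readers of methylated CpG and relatives of such readers were counted in the same way. Of 13 genes on this list, called readers for short, 10 were tested, of which 2 rose and 0 fell. The name does not state that every gene listed binds methylated CpG. Over all genes tested 10.1% rose and 7.21% fell in the reported fit, the shares to set beside each list count from that fit. Counts from fits with other settings or fewer arrays have other backgrounds. The median difference of the readers was -0.02, and it was 0.22 without DAC replicate 3. Without untreated replicate 1, 3 of these readers rose and 2 fell, beside 2538 and 2190 of all 14154 genes. Uhrf1, which binds hemimethylated CpG and recruits Dnmt1, rose by 1.25 ± 0.16 (adjusted p = 0.00151, limma) on the probe that represents it, while its second probe differed by 0.34 and was not called, and the mean of both differed by 0.79. Setdb2, a histone H3 lysine methyltransferase gene with a methyl-CpG binding domain, rose by 0.42 ± 0.11 (adjusted p = 0.0401, limma). The Setdb2 call held without untreated replicate 1 but was lost without any of the other 5 arrays, with values from 0.35 to 0.45. Mbd5, a relative named for its domain, differed by -0.32 ± 0.18 without passing.

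Partners of the readers were counted in 2 lists, beside 10.1% of all genes rising and 7.21% falling. Of 10 NuRD subunit genes tested, 0 rose and 0 fell in the limma fit. On the probes that represent them, 0 had an unadjusted p under 0.05 (limma), against 32% of all genes. In the fit over all probes, another probe was called lower for 3 of these genes, namely Mta3 (-0.62 ± 0.15), Rbbp4 (-0.47 ± 0.13) and Gatad2b (-0.57 ± 0.15, against 0.54 ± 0.44 on its representing probe). On the representing probes the differences ran from -0.39 to 0.54, with a median of -0.07. Nearest to a call were the histone chaperone genes Rbbp7 (-0.39 ± 0.22) and Rbbp4 (-0.18 ± 0.11), the scaffold gene Mta1 (-0.34 ± 0.21) and the remodeller gene Chd5 (0.36 ± 0.23). The dim Chd5 probe was detected on 2 of 3 DAC arrays and 1 of 3 untreated arrays. With an offset of 50 Chd5 differed by 0.17. Without untreated replicate 1, 2 NuRD genes fell, beside 2190 of all 14154 genes. Of 11 partners of Mbd1 and Kaiso tested, 4 rose and 1 fell, with a median of 0.25. Chaf1b, a subunit of the chromatin assembly factor that loads histones behind replication forks, rose by 1.09 ± 0.14 (adjusted p = 0.00163, limma), and its Mbd1-binding partner Chaf1a rose by 0.59 ± 0.16. Atf7ip, the cofactor that links Mbd1 to the methyltransferase Setdb1, rose by 0.58 ± 0.13 on the probe that represents it, while its second probe differed by -0.11. With the mean of its probes Atf7ip differed by 0.24 and was not called (adjusted p = 0.164, limma). The heterochromatin protein gene Cbx5 rose by 0.78 ± 0.22. Tbl1xr1, of the NCoR complex that Kaiso recruits, fell by 0.54 ± 0.13, on 1 of 4 probes, and differed by -0.15 with their mean. The adjusted p of these last 4 genes lay between 0.0191 and 0.0477 (limma). Ctnnd1, whose product p120 catenin binds Kaiso, differed by -0.20 ± 0.22, and Setdb1 by -0.15 ± 0.14. Without untreated replicate 1, 5 partners rose and 3 fell, beside 2538 and 2190 of all 14154 genes. Without any other single array 1 or 2 partners rose, beside 882 to 1238 of all genes. With median scaling 1 partner rose, beside 907 of all genes. Chaf1b rose under all 16 alternatives.

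Of 8 other DNA glycosylase genes, 7 were tested, of which 0 rose and 1 fell, against 10.1% and 7.21% of all genes. On the representing probes all 7 differences were below 0, also with median scaling and cyclic loess, and lay between -0.70 and -0.07. Across all probes tested, those of Ung reached up to 0.03, those of Mpg up to 0.10 and those of Mutyh down to -0.33. The 7 genes had a median of -0.14, against -0.02 over all genes, itself below 0. The median was -0.32 without DAC replicate 3 and -0.26 without untreated replicate 2. Of the 7, 5 lay below 0 without untreated replicate 1 and 6 without DAC replicate 1. Neil1, a glycosylase for oxidised bases, had log2 values of 4.98, 5.13 and 5.09 with DAC and 5.75, 5.81 and 5.75 without. The groups were far apart for their spread, and Neil1 fell by 0.70 ± 0.11 (adjusted p = 0.00339, limma). The call held under all 16 alternatives, but the difference was -0.39 with an offset of 50 and -0.33 without background correction. Ung, the main uracil glycosylase, differed by -0.07 ± 0.11 and Mpg, which removes alkylated bases, by -0.14 ± 0.11. The 8-oxoguanine glycosylase gene Ogg1 differed by -0.28 ± 0.17 and Neil2, a relative of Neil1, by -0.23 ± 0.14.

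The later steps of base excision repair were counted in 2 lists, beside 10.1% of all genes rising and 7.21% falling. Of 11 genes tested that act after the glycosylase in short-patch and single-strand break repair, 0 rose and 2 fell, with a median of 0.10. Lig3, the ligase of that branch, fell by 0.57 ± 0.12 (adjusted p = 0.0137, limma) and Tdp1, which clears blocked ends, by 0.51 ± 0.14 (adjusted p = 0.0369, limma). The call on Lig3 was lost without DAC replicate 2, DAC replicate 3 or untreated replicate 2 (-0.61 to -0.50 over all arrays left out), and that on Tdp1 held without untreated replicate 1 but not without any of the others (-0.57 to -0.37). Tdp1 differed by -0.31 with an offset of 50 and -0.26 without background correction and was not called there. Another probe of Parp2, which senses strand breaks, was called lower (-0.54 ± 0.11, against 0.10 ± 0.16 on its representing probe) in the fit over all probes. Apex1, the endonuclease that cuts the site a glycosylase leaves, differed by -0.35 ± 0.12 and did not pass (adjusted p = 0.078, limma), and Polb, the polymerase that fills the gap, differed by 0.28 ± 0.13. Of 15 genes of long-patch repair that also serve replication, 9 rose and 0 fell, with a median of 0.57. Pole, the catalytic subunit of polymerase epsilon, rose by 1.28 ± 0.13, the ligase gene Lig1 by 1.18 ± 0.13, the clamp loader gene Rfc5 by 1.07 ± 0.12 and the flap endonuclease gene Fen1 by 0.80 ± 0.12 (adjusted p from 0.00046 to 0.00378, limma), and these 4 calls held under all 16 alternatives. The second Pole probe differed by 0.13 and was not called, and the mean of both differed by 0.71. The 9 rises became 5 without untreated replicate 2, where 896 of all 14154 genes rose. They became 11 without untreated replicate 1, where 2 long-patch genes fell. In that fit 2538 of all genes rose and 2190 fell.

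**Figure D4:**
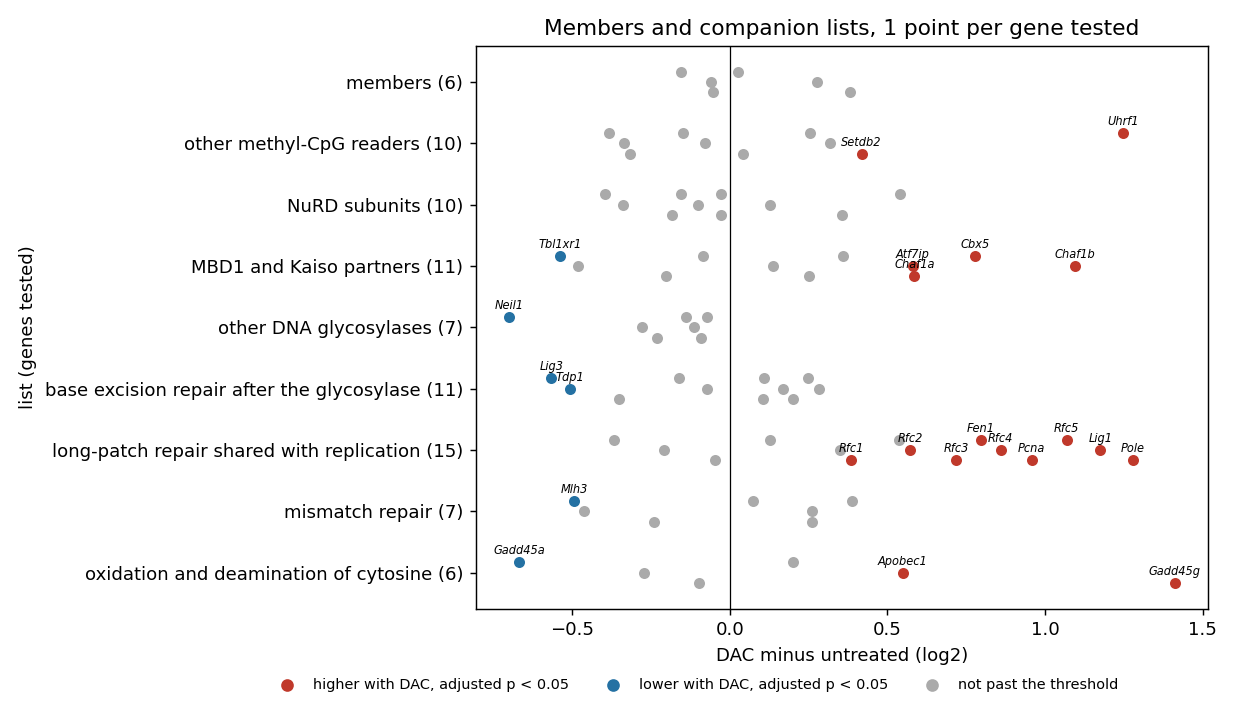
Log2 difference, DAC minus untreated (x axis), of each gene tested in the members and in 8 companion lists (y axis, number of genes tested in brackets). Red points rose and blue points fell at an adjusted p under 0.05 (limma), grey points did not pass, and genes that passed are named. All 6 members are grey, while 9 of 15 genes of long-patch repair are red.

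Mismatch repair and cytosine deamination meet the same mismatches that Mbd4 and Tdg act on. Their counts stand beside 10.1% of all genes rising and 7.21% falling. Of 7 mismatch repair genes tested 0 rose and 1 fell, with a median of 0.07 that turned to -0.13 without DAC replicate 1 and to -0.15 with the mean of probes. Mlh3 fell by 0.49 ± 0.13 (adjusted p = 0.0324, limma), a call that held without untreated replicate 1 but not without any of the others (-0.57 to -0.42). Msh6 and Msh3, which recognise mismatches, differed by 0.39 ± 0.13 and -0.46 ± 0.18, and Pms2, an endonuclease gene, by 0.26 ± 0.12. Of 10 genes of cytosine oxidation, deamination and repair-linked demethylation, 6 were tested, of which 2 rose and 1 fell, with a median of 0.05. Gadd45g, a stress-response gene linked to repair-based demethylation, rose by 1.41 ± 0.18 (adjusted p = 0.00144, limma) on both probes. Its relative Gadd45a fell by 0.67 ± 0.13 (adjusted p = 0.00962, limma), also on both probes, though not without DAC replicate 2, where the difference was -0.61. Apobec1, a cytidine deaminase gene, rose by 0.55 ± 0.11, a call lost without DAC replicate 2, DAC replicate 3 or untreated replicate 2 (0.47 to 0.61 over all arrays left out). Tet2, which makes the oxidised cytosines that Tdg removes, differed by -0.27 ± 0.21, and no probe of Tet1 or Tet3 was detected on any array.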

How the data were processed

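Per the labels' protocols, Trizol was used to extract total RNA, and an Ambion MessageAmp kit to make biotin cRNA for Illumina arrays. Per the file headers, the authors' deposited table gives for each probe and array an average intensity with its error over beads, a detection p-value and the bead count. Intensities are not scaled between arrays, and the lowest is 30.9. Not given in the sources used here are the scanner software and the basis of the detection p-value. A second deposited table was not used, since its probe identifiers could not be paired with names.

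Background was corrected with limma 3.58.1 in R 4.3.3 by neqc, with negative controls inferred from the detection p-values and an offset of 16, followed by quantile normalisation and log2. Probes with a detection p under 0.05 on at least 3 of 6 arrays were kept (21415 of 45281). Array names were matched to RefSeq symbols (GRCm38.p6), 16223 by symbol and 5684 by a synonym, and 8947 were kept as they stood. The probe with the highest mean represented each of 14154 genes. Groups were compared with lmFit and eBayes without covariates and Benjamini-Hochberg adjustment over all genes, and member probes were also fitted with all probes. The fit was tested on simulated data. The members and lists were chosen with earlier results of these data known. The genes named were the members, in each list the 4 lowest in adjusted p and any needed for a count of 5 or fewer, partners discussed beside a member, and the 3 nearest in pattern to Mbd1; some genes that this rule names are not reported here. Partners, and genes named as undetected or as the ends of a range, were picked after values were seen. The alternatives were other offsets, background steps, scalings, filters and probe rules, a replicate block, each array left out, and untreated replicates 2 and 3 averaged.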

Additional observations from a re-analysis of the deposited data

How the results depend on the processing

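No member was called under any of 16 alternatives (96 fits of the 6 genes tested and 85 of their other probes). Mbd1 and Mbd4 stayed above 0 throughout, with 0.22 to 0.50 and 0.11 to 0.36. Signs near 0 turned: with arrays left out in turn Mbd3 ranged from -0.21 to 0.043, Zbtb33 from -0.13 to 0.19, Tdg from -0.31 to 4.09e-05 and Smug1 from -0.11 to 0.021. With untreated replicates 2 and 3 averaged, Mbd3 was 0.025 and Zbtb33 -0.061, and with median scaling Zbtb33 was -0.13. Mbd1 probe 5860528 turned to 0.012 with cyclic loess and 0.021 with those replicates averaged and ranged from -0.39 to 0.29 with arrays left out, where probe 5810474 ranged from -0.23 to 0.48 and Zbtb33 probe 1580010 from -0.24 to 0.015. With the mean of probes Gatad2b, a NuRD subunit gene with 0.54 in the reported fit, was -0.014. Without the filter on dim probes, the only probe of Mbd2 differed by 0.01 (adjusted p = 0.96, limma). That probe was detected on no array, so the value gives no fold for Mbd2. The causes were not tested.

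Over the 16 alternatives the list medians ranged from -0.16 to 0.06 for the members, -0.11 to 0.22 for other readers, -0.21 to -0.028 for NuRD, 0.096 to 0.32 for partners, -0.32 to -0.085 for other glycosylases, -0.067 to 0.14 after the glycosylase, 0.43 to 0.65 in long-patch repair, -0.15 to 0.19 in mismatch repair and -0.098 to 0.096 in oxidation and deamination. Median scaling moved the median log2 difference of all genes to -0.12, with 967 genes falling in all. It left 907 genes rising in all, 1 other reader, 1 Mbd1 or Kaiso partner (2 fell), 1 fall after the glycosylase and 1 rise in the oxidation and deamination list, and rises made up 48.4% of calls, against 58.4% in the reported fit and 67.3% with cyclic loess. The replicate block left 699 genes rising and 179 falling, with 1 reader, 1 partner, 4 long-patch genes and 1 oxidation or deamination gene rising, and 0 falls among partners, after the glycosylase, in mismatch repair and in oxidation and deamination. The labels letter the replicates A to C, numbered 1 to 3 here, and name nothing that plates of the same letter share. Deviations of same-numbered plates from their group means correlated at r = -0.612, -0.109 and -0.479. For lack of a stated link, the plates were not treated as pairs. With untreated replicates 2 and 3 averaged, 930 genes rose and 394 fell, 1 reader and 1 partner rose, and falls among partners, after the glycosylase and in mismatch repair were 0. With an offset of 50 or without background correction, 1 reader, 2 partners and 1 long-patch gene fell. Over all 14154 genes, 1107 and 1113 fell in these fits. Without the filter, 1 reader, 1 gene after the glycosylase and 1 long-patch gene fell and 2 partners rose. Of all 28902 genes tested there, 950 fell and 1326 rose. With the mean of probes, 1 reader and 1 NuRD gene and 0 partners fell, beside 1176 of all 14154 genes. Cyclic loess gave 1 fall after the glycosylase, and a detection p under 0.01 gave 1 long-patch fall. Over all genes, 787 of 14154 fell with cyclic loess and 1005 of 12409 with that detection p.

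With arrays left out in turn, 882 to 2538 genes rose and 337 to 2190 fell, both highest without untreated replicate 1. Rises numbered 1 to 3 among readers, 1 to 5 among partners, 0 to 1 after the glycosylase, 5 to 11 in long-patch repair, 0 to 1 in mismatch repair and 1 to 2 in oxidation and deamination. Falls numbered 0 to 2, 0 to 3, 0 to 3, 0 to 2, 0 to 1 and 0 to 1 in the same lists, and 0 to 2 among NuRD genes. The brightness of a probe limits what is seen of Mbd2 and of the second probes of Tdg and Smug1.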

Other observations

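The deviations of plates from their group means correlated across the groups, and no label gives a link. Over all genes tested, the deviations of DAC replicate 1 correlated with those of untreated replicates 2 and 3 at r = 0.521 and 0.561, and those of DAC replicate 3 with those of untreated replicate 1 at r = 0.533. These correlations are across genes, which are not independent replicates, and they describe these 6 arrays only. Deviations cancel out within each group, which ties the r values to one another. Untreated replicates 2 and 3 were also nearly alike (r = 0.997), so the r values are not separate findings. Mbd3 and Tdg were highest within their groups on DAC replicate 1 and untreated replicate 3, and lowest in the untreated group on untreated replicate 1. Zbtb33 was lowest of the DAC arrays on DAC replicate 1 and highest of the untreated arrays on untreated replicate 1. Mbd1 was highest of the DAC arrays on DAC replicate 1 and lowest of the untreated arrays on untreated replicate 1. Smug1 and Mbd4 ran against these correlations. Smug1 was highest in both groups on replicate 1. Mbd4 was highest of the DAC arrays on DAC replicate 3 and lowest of the untreated arrays on untreated replicate 1. The part of these deviations in the members' differences was not tested.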
